A study of Homo sapiens with 12 samples.

Results

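The 10 genes considered here, all of fatty acid synthesis and lipid storage, were followed in cultured human brain microvascular endothelium, which forms the inner wall of brain capillaries. They were chosen by name, with earlier results of these data known. They are the synthesis enzymes ACLY, ACACA, FASN and SCD, the acyl-CoA synthetases ACSL1 and ACSL3, the phosphatidate phosphatase LPIN1, the lipid droplet coat proteins PLIN2 and PLIN3, and the triglyceride lipase PNPLA2. Each had 1 entry among the 23398 gene entries of the deposited table, and all 10 were among the 14324 genes kept for testing, with 1648 to 82340 reads per library. The cells came from a commercial supplier (Cell Systems) and grew in that supplier's complete medium. All groups were transfected with an siRNA for 48 hours, so the controls carry a transfection as well. The groups were siRNA against Glut1 in high glucose (siGlut1 high, 3 libraries), non-silencing siRNA in high glucose (NS high, 2 libraries used), siGlut1 in control glucose (3 libraries) and NS in control glucose (3 libraries). The sources used here give neither the glucose concentrations nor how long the cells were in high glucose. Glut1 is the product of SLC2A1 and the main glucose transporter of this endothelium.

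Fatty acid synthesis starts in the cytosol from citrate. ATP citrate lyase splits it to acetyl-CoA, acetyl-CoA carboxylase makes malonyl-CoA, fatty acid synthase joins these units into a saturated fatty acid, and stearoyl-CoA desaturase adds a double bond. Acyl-CoA synthetases then activate fatty acids, lipin makes the diacylglycerol from which triglyceride is built, and triglyceride is stored in droplets coated with perilipins and broken down first by adipose triglyceride lipase. The transcription factors SREBP and ChREBP or MondoA drive many of the synthesis genes, and PPAR factors, which bind fatty acids and their derivatives, drive PLIN2 and fatty acid binding proteins in several tissues.

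RNA abundance was measured by RNA sequencing, and library totals ranged from 40135082 to 90536476 reads with a median of 49686182. The second NS high column was left out because its counts were the mean of the other 2 columns of that group in 23397 of 23398 entries. SLC2A1 was at 7.09, 7.19 and 6.38 reads scaled to library size (CPM) in siGlut1 high libraries against 21.2 and 20.7 CPM in NS high libraries, and at 8.56, 9.05 and 6.26 CPM in siGlut1 control libraries against 25.7, 23.7 and 22.2 CPM in NS control libraries. It fell by 1.61 on the log2 scale in high glucose and fell by 1.58 in control glucose (edgeR quasi-likelihood test, adjusted p = 0.000888 and 0.000884). All 8 endothelial markers were expressed, with summed levels of 5637 to 7017 CPM in siGlut1 high, 5579 to 5693 CPM in NS high, 5336 to 6988 CPM in siGlut1 control and 4706 to 7548 CPM in NS control libraries. The labels do not say whether replicates were separate cultures, so p-values measure the spread between these libraries, which may be technical.

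Between genes, levels were compared per length with the RPKM values (reads scaled by gene length and by library total) that the authors deposited. SCD stood highest at 165 ± 11.1 RPKM (SD, n = 11 libraries) and ACLY next at 120 ± 7.38 RPKM, and neither range overlapped that of the gene below it. PLIN2 averaged 47.8 RPKM, PLIN3 47.5 RPKM, FASN 41.0 RPKM and ACSL3 31.96 RPKM. PNPLA2 averaged 18.9 RPKM, LPIN1 15.4 RPKM, ACSL1 10.95 RPKM and ACACA 10.7 RPKM. From PLIN2 down to ACACA, the range of each gene over the 11 libraries overlapped that of the next gene. The desaturase and the citrate lyase were thus the most abundant of these transcripts per length in every library. Spread within groups differed as well: the pooled within-group SD on the log2 CPM scale was lowest for PLIN2 (0.081), SCD (0.083) and ACLY (0.084), and highest for PNPLA2 (0.241) and FASN (0.298).

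**Figure D1:**
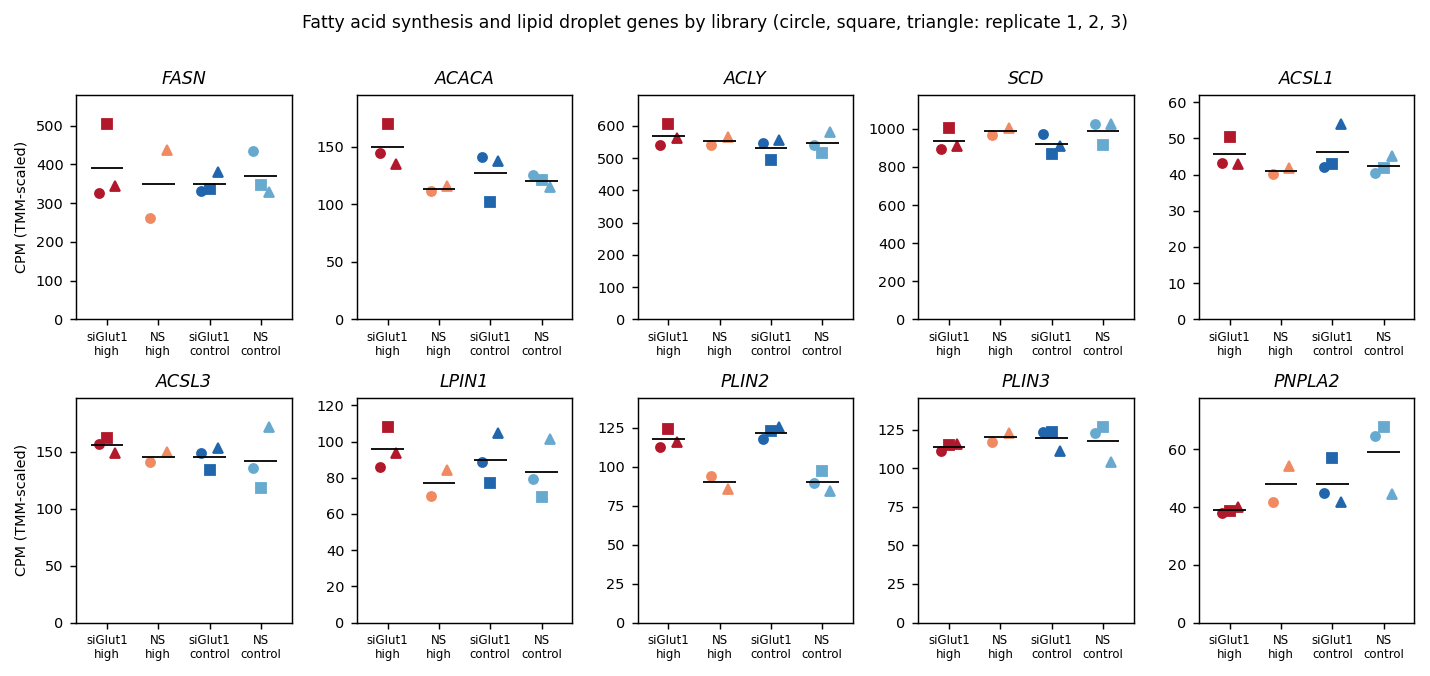
Level of each of the 10 genes in CPM (y axis, from 0, TMM-scaled) in every library of the 4 groups (x axis); points are libraries, marked by replicate number, and black bars are group means. PLIN2 is higher in all siGlut1 libraries (112 to 125 CPM) than in all NS libraries (84.1 to 97.1 CPM), with no share over all genes given for this. Between the siRNAs, 1 of the 10 genes does not overlap in control glucose, where 20.6% of all genes tested do not. In high glucose, with 2 NS libraries, 6 of 10 do not overlap, where 44.5% of all genes tested do not.

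The droplet coat gene PLIN2 was the 1 gene of the 10 called with the siRNA (edgeR adjusted p under 0.05), and it rose in both media. PLIN2, or adipophilin, coats cytosolic droplets in most cell types and is stabilised by the lipid it covers. Its levels were 112, 124 and 116 CPM in siGlut1 high libraries against 94.0 and 85.9 CPM in NS high libraries. In control glucose they were 117, 123 and 125 CPM in siGlut1 libraries against 89.7, 97.1 and 84.1 CPM in NS libraries. Every siGlut1 library stood above every NS library of either medium. The share of all genes that separate in this way over both media is not given here. The means were 118 ± 6.12 CPM in siGlut1 high (SD, n = 3) and 89.96 ± 5.75 CPM in NS high libraries (SD, n = 2), and 122 ± 3.99 CPM in siGlut1 control and 90.3 ± 6.51 CPM in NS control libraries (SD, n = 3 each).

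PLIN2 rose 1.31-fold in high glucose (log2 fold change 0.39 ± 0.08 SE, 95% interval 0.20 to 0.57, edgeR adjusted p = 0.0284). It rose 1.35-fold in control glucose (0.43 ± 0.07, 0.27 to 0.59, edgeR adjusted p = 0.0126). In both media, 1 of 10 members was called and it was higher. Among all 14324 genes 4.11% were called in high glucose, 2.47% higher and 1.64% lower, and 2.96% were called in control glucose, 1.7% higher and 1.26% lower. Averaged over the media, the rise was 1.33-fold (0.41 ± 0.06 SE, 0.29 to 0.53, edgeR adjusted p = 0.0011), again 1 of 10 members. In that comparison 14.4% of all genes tested were called, made up of 7.93% higher and 6.49% lower. A count of 1 in 10 is close to that last background. The averaged call held when each of the 11 libraries was left out in turn (0.38 to 0.45, adjusted p at most 0.0107). The call in control glucose ended without NS control 1 (0.43, adjusted p = 0.0574) and without siGlut1 control 2 (0.42, adjusted p = 0.0517). In high glucose the PLIN2 call ended without NS high 1 (0.46, adjusted p = 0.122), NS high 3 (0.32, 0.231), siGlut1 high 1 (0.41, 0.0585), siGlut1 high 2 (0.34, 0.102), siGlut1 high 3 (0.39, 0.0753), NS control 1 (0.38, 0.0536) or siGlut1 control 1 (0.38, 0.0506).

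PLIN3, or TIP47, is a close relative that moves from the cytosol onto nascent droplets, and its transcript did not pass the test in either medium. Its levels were 111, 115 and 115 CPM in siGlut1 high libraries against 117 and 123 CPM in NS high libraries, and 123, 124 and 111 CPM in siGlut1 control libraries against 123, 127 and 104 CPM in NS control libraries. The log2 fold change was -0.07 in high glucose (95% interval -0.27 to 0.12) and 0.02 in control glucose (-0.16 to 0.19). Per length, PLIN2 and PLIN3 changed places in order with the siRNA. PLIN2 was at 50.2 to 56.4 RPKM and PLIN3 at 44.6 to 49.4 RPKM in the 6 siGlut1 libraries, a ratio of 1.06 to 1.26. PLIN2 was at 38.9 to 43.2 RPKM and PLIN3 at 43.2 to 50.5 RPKM in the 5 NS libraries, a ratio of 0.779 to 0.900. PLIN2 exceeded PLIN3 in 6 of 6 siGlut1 libraries and in 0 of 5 NS libraries, which is a description with no test of its own.

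**Figure D2:**
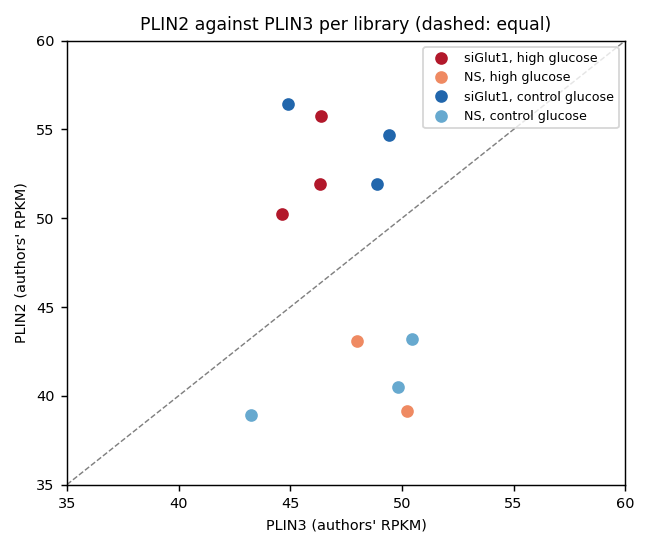
PLIN2 (y axis) against PLIN3 (x axis) in each library, both in the authors' RPKM; each point is 1 library, coloured by group, and the dashed line marks equal values. The 6 siGlut1 libraries lie above the line and the 5 NS libraries below it, with PLIN3 spanning a like range in both.

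The promoters of these 2 perilipin genes are shown because PLIN2 rose and PLIN3 did not pass the test under the same siRNA. In the build of the count table, hg19, the PLIN2 gene spans chr9:19115759-19127604 and the PLIN3 gene chr19:4838346-4867780. The windows run from 250 bases before to 50 bases after the transcription start in RefSeq (GRCh38.p14), and each is written 5′ to 3′ on the strand of the gene. PLIN2 lies on chromosome 9, minus strand, with the window at chr9:19127443-19127742. PLIN3 lies on chromosome 19, minus strand, with the window at chr19:4867618-4867917. Capitals mark an E-box (CACGTG, the core of the element read by ChREBP, MondoA and other bHLH-zipper factors) in PLIN2, and a CCAAT box (read here as ATTGG on the other strand, the element bound by NF-Y) in PLIN3.
PLIN2: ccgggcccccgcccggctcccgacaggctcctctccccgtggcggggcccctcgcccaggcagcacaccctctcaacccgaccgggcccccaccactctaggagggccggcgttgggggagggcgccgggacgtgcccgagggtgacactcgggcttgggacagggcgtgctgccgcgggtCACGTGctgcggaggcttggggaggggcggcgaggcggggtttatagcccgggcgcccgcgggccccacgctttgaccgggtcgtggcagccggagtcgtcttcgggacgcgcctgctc
PLIN3: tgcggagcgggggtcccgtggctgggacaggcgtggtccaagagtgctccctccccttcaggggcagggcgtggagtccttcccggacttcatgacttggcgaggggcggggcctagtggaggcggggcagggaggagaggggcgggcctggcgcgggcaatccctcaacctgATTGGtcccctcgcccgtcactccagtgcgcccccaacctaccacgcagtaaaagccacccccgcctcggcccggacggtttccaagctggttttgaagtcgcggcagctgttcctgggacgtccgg
The E-box of PLIN2 starts 69 bases before the transcription start, and the CCAAT box of PLIN3 starts 77 bases before it. Both distances are from the RefSeq start, which was not matched to the ends of the hg19 gene models used for counting. Windows were found for 9 of the 10 genes, 18 windows in all, and the window of PLIN2 was the only one with an E-box, a motif held by 7.26% of 35116 RefSeq windows of the same length. A count of 1 in 18 is close to that share. A CCAAT box was held by 34.6% of windows, and besides PLIN3 it was in windows of ACSL3, ACSL1, SCD, ACACA and ACLY. The sterol response element TCACNCCAC was held by 1.13% of windows, among them that of PNPLA2 and 1 of the ACSL1 windows. The PPAR response element (AGGTCA, any base, then AGGTCA again), held by 0.0228% of windows, was in no window of these genes. Both strands were searched, and a match is a run of letters, not a site shown to be used.

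PNPLA2, which encodes adipose triglyceride lipase, had negative values in both media and did not pass the test. Its levels were 38.0, 38.6 and 40.01 CPM in siGlut1 high libraries against 41.7 and 54.3 CPM in NS high libraries. In control glucose they were 44.7, 57.1 and 41.6 CPM in siGlut1 libraries against 64.5, 67.6 and 44.6 CPM in NS libraries. The groups did not overlap in high glucose and overlapped in control glucose, where the NS control 3 library stood apart from the other 2 NS libraries. The log2 fold change was -0.30 ± 0.18 SE in high glucose (edgeR adjusted p = 0.372), -0.30 ± 0.16 in control glucose (0.381) and -0.30 ± 0.12 averaged over media (95% interval -0.57 to -0.04, unadjusted p = 0.0294, adjusted p = 0.122). Single libraries moved these PNPLA2 values in either direction. The averaged value was -0.38 and past the threshold without NS control 3 (adjusted p = 0.0198) and -0.20 without NS high 3 (adjusted p = 0.407). The high glucose value was -0.10 without NS high 3 and -0.47 without NS high 1 (adjusted p = 0.890 and 0.379). The control glucose value was -0.19 without NS control 2, -0.46 without NS control 3 and -0.45 without siGlut1 control 2 (adjusted p = 0.633, 0.0997 and 0.223).

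Of the 4 synthesis enzymes, none passed the test with edgeR in either medium, and ACACA came nearest. ACACA encodes the acetyl-CoA carboxylase of the committed step. Its levels were 144, 170 and 135 CPM in siGlut1 high libraries against 111 and 116 CPM in NS high libraries, and 141, 102 and 137 CPM in siGlut1 control libraries against 126, 121 and 115 CPM in NS control libraries. All siGlut1 high libraries stood above both NS high libraries, and the control glucose groups overlapped, with siGlut1 control 2 the lowest of the 11 libraries. The log2 fold change was 0.40 ± 0.13 SE in high glucose (95% interval 0.10 to 0.69, unadjusted p = 0.0128, edgeR adjusted p = 0.125) and 0.07 ± 0.12 in control glucose (-0.19 to 0.33). The averaged ACACA value was 0.23 (edgeR adjusted p = 0.105), and without siGlut1 control 2 it was 0.30 and past the threshold (adjusted p = 0.0189), while without siGlut1 high 2 it was 0.18 (adjusted p = 0.216). With the trend of fold changes on gene length removed, the ACACA value was 0.19 in high glucose (adjusted p = 0.354), 0.13 in control glucose and 0.16 averaged (adjusted p = 0.142).

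FASN, the fatty acid synthase gene, varied most between replicates of a group. It was at 326, 504 and 346 CPM in siGlut1 high libraries against 263 and 437 CPM in NS high libraries, and at 332, 336 and 381 CPM in siGlut1 control libraries against 435, 347 and 328 CPM in NS control libraries. The 2 NS high libraries differed 1.66-fold from each other, which exceeds any difference between group means. The log2 fold change was 0.16 in high glucose (95% interval -0.32 to 0.65) and -0.08 in control glucose (-0.52 to 0.35), and the first of these intervals reaches past a 1.5-fold change. ACLY, the citrate lyase, was tighter: 540 to 606 CPM in siGlut1 high against 541 and 565 CPM in NS high libraries, and 494 to 556 CPM in siGlut1 control against 516 to 582 CPM in NS control libraries. Its log2 fold changes were 0.04 in high glucose (-0.14 to 0.22) and -0.04 in control glucose (-0.20 to 0.12). SCD, the desaturase, spanned 892 to 1005 CPM in siGlut1 high against 967 and 1005 CPM in NS high libraries, and 870 to 971 CPM in siGlut1 control against 916 to 1025 CPM in NS control libraries. Its log2 fold changes were -0.07 (-0.25 to 0.10) in high and -0.11 (-0.27 to 0.05) in control glucose. For ACLY and SCD, the most abundant of the 10 per length, both intervals lay within a 1.5-fold change either way. The same held for ACSL1, ACSL3 and PLIN3. Of the 10 genes, 6 had such an interval in high and 8 in control glucose.

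The genes of fatty acid activation and diacylglycerol supply did not pass the test. ACSL1, a long-chain acyl-CoA synthetase of the endoplasmic reticulum and mitochondria, was at 42.996 to 50.4 CPM in siGlut1 high against 40.2 and 41.7 CPM in NS high libraries, and at 42.1 to 53.9 CPM in siGlut1 control against 40.5 to 45.0 CPM in NS control libraries. Its log2 fold changes were 0.15 in high (95% interval -0.10 to 0.41) and 0.13 in control glucose (-0.10 to 0.35). ACSL3, a synthetase found on nascent droplets, was at 149 to 162 CPM in siGlut1 high against 141 and 150 CPM in NS high libraries, with log2 fold changes of 0.10 in high (-0.18 to 0.38) and 0.03 in control glucose (-0.22 to 0.29). LPIN1, lipin 1, was at 86.2, 108 and 93.8 CPM in siGlut1 high against 69.7 and 84.2 CPM in NS high libraries, and at 88.5, 76.9 and 104 CPM in siGlut1 control against 79.5, 69.1 and 101 CPM in NS control libraries. The LPIN1 groups stood apart in high glucose and overlapped in control glucose, with log2 fold changes of 0.32 (-0.05 to 0.69, unadjusted p = 0.0872, edgeR adjusted p = 0.317) and 0.11 (-0.22 to 0.44). Without NS high 1 the LPIN1 value in high glucose was 0.20. The siGlut1 and NS libraries did not overlap for 6 of the 10 genes in high glucose, 4 higher and 2 lower, where 44.5% of all genes tested did not overlap, and for 1 of 10 in control glucose, where 20.6% did not. The median log2 fold change of the 10 was 0.13 in high and 0.03 in control glucose, beside -0.00048 and -0.0067 over all genes tested.

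**Figure D3:**
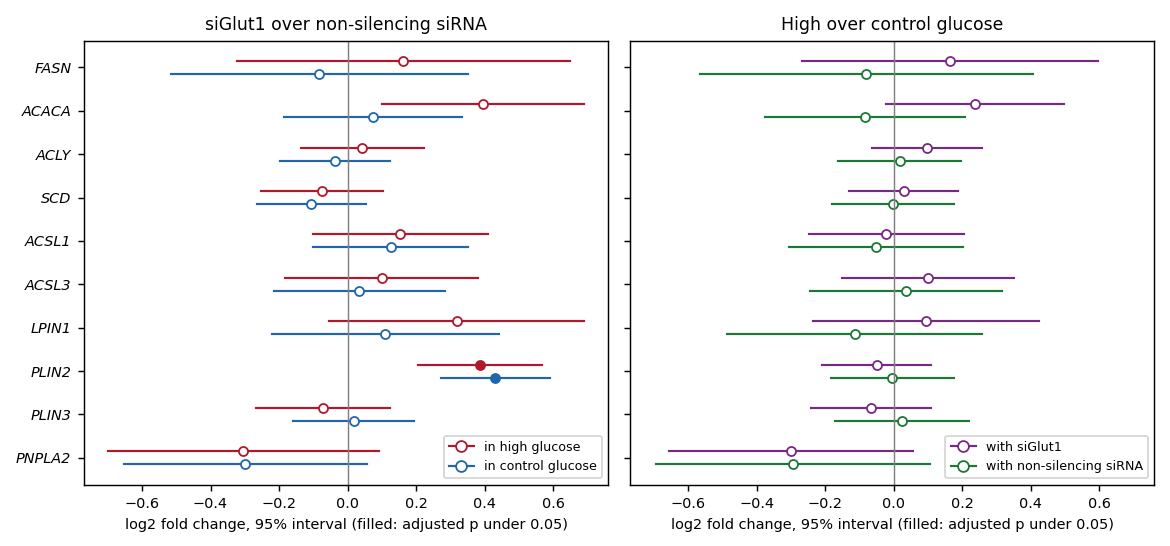
Log2 fold change (x axis) with its 95% interval for each of the 10 genes (y axis), for siGlut1 over NS in each medium (left) and high over control glucose with each siRNA (right); filled points have an edgeR adjusted p under 0.05. PLIN2 holds the only filled points, 0.39 in high and 0.43 in control glucose, and the glucose intervals of all 10 genes include 0.

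High glucose itself gave no call among the 10 genes. With edgeR, 0 of 10 passed with siGlut1, where 0.014% of all genes were called, and 0 of 10 passed with NS, where 0% were called. At an unadjusted p under 0.05 the counts were 0 of 10 with either siRNA, beside 2176 of 14324 genes tested with siGlut1 and 774 with NS. DESeq2 also called 0 of 10 with either. PLIN2 differed between high and control glucose by -0.05 (95% interval -0.21 to 0.11) on the log2 scale with siGlut1 and by -0.0046 (-0.18 to 0.17) with NS. PNPLA2 gave the largest values, -0.30 with siGlut1 (-0.66 to 0.06) and -0.29 with NS (-0.69 to 0.11). It was the 1 gene of 10 whose siGlut1 high and siGlut1 control libraries did not overlap, where 22.5% of all genes did not, and 0 of 10 had no overlap with NS, where 17.8% of genes had none. Averaged over the siRNAs, PNPLA2 was at -0.30 (-0.56 to -0.03, unadjusted p = 0.0326, edgeR adjusted p = 0.254). In that comparison 0 of 10 passed with edgeR or DESeq2, and edgeR called 0.412% of all genes. Of the 10, 1 had an unadjusted p under 0.05, beside 2425 of 14324 genes tested. The averaged glucose value of PNPLA2 was -0.38 and past the threshold without NS control 3 (adjusted p = 0.045), and -0.21 without NS high 1 (adjusted p = 0.657). With NS, the PNPLA2 value was -0.12 without NS high 1, -0.18 without NS control 2, -0.46 without NS control 3 and -0.50 without NS high 3, and with siGlut1 it was -0.14 without siGlut1 control 2 (adjusted p at least 0.234 in each).

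The change with the siRNA was compared between the media by the interaction term. PLIN2 differed by -0.05 between high and control glucose (95% interval -0.29 to 0.19, edgeR adjusted p = 0.999), an interval that reaches 0.29 in size. ACACA had the largest value, 0.32 (-0.07 to 0.71), with FASN at 0.24 (-0.41 to 0.90) and LPIN1 at 0.21 (-0.29 to 0.71). With the trend on gene length removed these became 0.06 for ACACA, 0.06 for FASN and 0.14 for LPIN1. Leaving out each library gave 0.19 to 0.40 for ACACA, -0.07 to 0.66 for FASN and 0.04 to 0.35 for LPIN1. With edgeR 0 of 10 passed, 0 of 10 had an unadjusted p under 0.05, and DESeq2 called 0 of 10; over all genes 0% were called by edgeR, with 394 at an unadjusted p under 0.05.

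Beyond the 10 genes, 6 lists of related genes were set beside them, each described by counts in the siRNA comparison averaged over media and by its median, which was -0.0045 over all genes. The lists were chosen with earlier results of these data known, so their counts beside shares over all genes describe and do not test. Of the genes listed in the table, 13 of 14 for SREBP and MondoA control, 20 of 23 for other fatty acid synthesis, 12 of 14 for triglyceride synthesis, 13 of 19 for other droplet and lipolysis genes, 22 of 23 for fatty acid oxidation and 16 of 19 for uptake and PPAR were tested. For genes that control lipid synthesis through SREBP and MondoA, 1 of 13 rose and 1 fell, with a median of -0.07, where 14.4% of all genes were called in either direction; 2 of 13 is close to that share. The gene of this list that was not kept for testing was MLXIPL, which encodes ChREBP. MLXIP, which encodes the glucose-sensing factor MondoA, rose by 0.45 ± 0.06 SE (edgeR adjusted p = 0.0015), and HMGCS1, a cholesterol synthesis enzyme and SREBP target, fell by 0.35 (-0.35 ± 0.05, adjusted p = 0.0012). Both passed in high glucose (0.58 and -0.53, adjusted p = 0.0118 and 0.0045), where 4.11% of all genes were called. These calls ended without NS high 1 (0.58 and -0.49, adjusted p = 0.118 and 0.0729) or NS high 3 (0.58 and -0.55, adjusted p = 0.12 and 0.0696). In control glucose 0 of 13 passed with edgeR, where 2.96% of all genes did, and 1 passed with DESeq2. At an unadjusted p under 0.05 there were 2 of 13, beside 2499 of 14324 genes tested.

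Of 20 other fatty acid synthesis genes, 2 rose and 1 fell, with a median of -0.09, and 3 of 20 is also close to the 14.4% called over all genes. ACSS2, the enzyme that makes acetyl-CoA from acetate, fell to 0.727-fold (-0.46 ± 0.09, edgeR adjusted p = 0.0070). PTPLAD1, a dehydratase of fatty acid elongation, rose by 0.25 (adjusted p = 0.0079), and ELOVL1, an elongase of very long chains, rose by 0.18 (adjusted p = 0.0321). ACSS2 also passed in high glucose (-0.57, adjusted p = 0.0386), the 1 call of this list within a single medium. Over all genes 4.11% were called in high glucose, and 1 of 20 is close to that share. The ACSS2 call there ended without any 1 of 7 libraries, all but NS control 2, NS control 3, siGlut1 control 2 and siGlut1 control 3. The values were -0.66 to -0.47, with adjusted p up to 0.273. The ELOVL1 call ended when any 1 of 8 libraries was left out, all but NS control 3, siGlut1 control 2 and siGlut1 high 1 (0.16 to 0.20 over the 11, adjusted p up to 0.105). Among 12 triglyceride synthesis genes 0 passed with edgeR and DESeq2 called 0, with a median of 0.05, where edgeR called 14.4% of all genes. Of these 12 genes, 1 had an unadjusted p under 0.05, beside 4232 of 14324 genes tested. AGPAT6, a glycerol-phosphate acyltransferase, was at 0.07 (adjusted p = 0.368), and AGPAT3, a lysophosphatidate acyltransferase, was at -0.05 (0.579).

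Of 13 other droplet and lipolysis genes, 3 rose and 2 fell, with a median of -0.04, where 7.93% of all genes were called higher and 6.49% lower. HILPDA, a droplet protein that inhibits adipose triglyceride lipase, rose by 0.45 ± 0.08 (edgeR adjusted p = 0.0057) and kept its call when each library was left out (0.40 to 0.50). MGLL, the monoglyceride lipase, rose by 0.28 (adjusted p = 0.0412), AUP1, a droplet protein, rose by 0.21 (0.0287), and HSD17B11, a droplet-associated dehydrogenase, fell by 0.35 on the log2 scale (0.0270). Each of these 3 lost its call when any 1 of 6 or 7 of the 11 libraries was left out: without NS high 1, NS high 3, siGlut1 high 2, siGlut1 high 3 or siGlut1 control 3 for all 3 genes, without siGlut1 control 1 for MGLL and HSD17B11, and without NS control 2 for MGLL and AUP1. Values over the 11 were 0.24 to 0.33 for MGLL, 0.18 to 0.23 for AUP1 and -0.41 to -0.30 for HSD17B11, with adjusted p up to 0.134, 0.111 and 0.0921. Within single media 0 of 13 passed with edgeR, which called 4.11% of all genes in high and 2.96% in control glucose. In each medium 5 of the 13 had an unadjusted p under 0.05 and DESeq2 called 2. Over all 14324 genes, 2984 had an unadjusted p under 0.05 in high and 2499 in control glucose. The share called by DESeq2 over all genes is not given here.

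Of 22 fatty acid oxidation genes, 5 fell and 0 rose, with a median of -0.10, where 6.49% of all genes were called lower and 7.93% higher. ETFDH, which passes electrons from acyl-CoA dehydrogenases to ubiquinone, fell by 0.40 on the log2 scale (-0.40 ± 0.06, edgeR adjusted p = 0.0024). HADH, a hydroxyacyl-CoA dehydrogenase, fell by 0.36 (adjusted p = 0.0235), ETFB, an electron transfer flavoprotein subunit, fell by 0.32 (0.0144), and CPT2, the inner membrane carnitine palmitoyltransferase, fell by 0.28 (0.0088). The calls for ETFDH and CPT2 held when each library was left out. The ETFB call ended without NS high 1 or NS high 3 (-0.31 and -0.33, adjusted p = 0.068 and 0.0514). The HADH call ended without NS control 1, NS high 1, NS high 3, siGlut1 high 2 or siGlut1 high 3 (adjusted p up to 0.110). Within single media only ETFDH passed, at -0.43 in high glucose and -0.37 in control glucose (adjusted p = 0.0295 and 0.0430). Over all genes tested, 4.11% were called in high and 2.96% in control glucose, and 1 of 22 is close to these shares. The control glucose call of ETFDH ended without any 1 of the 11 libraries (-0.42 to -0.30, adjusted p up to 0.135), and the high glucose call ended without any 1 of the 5 high glucose libraries (-0.49 to -0.36, adjusted p up to 0.219).

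**Figure D4:**
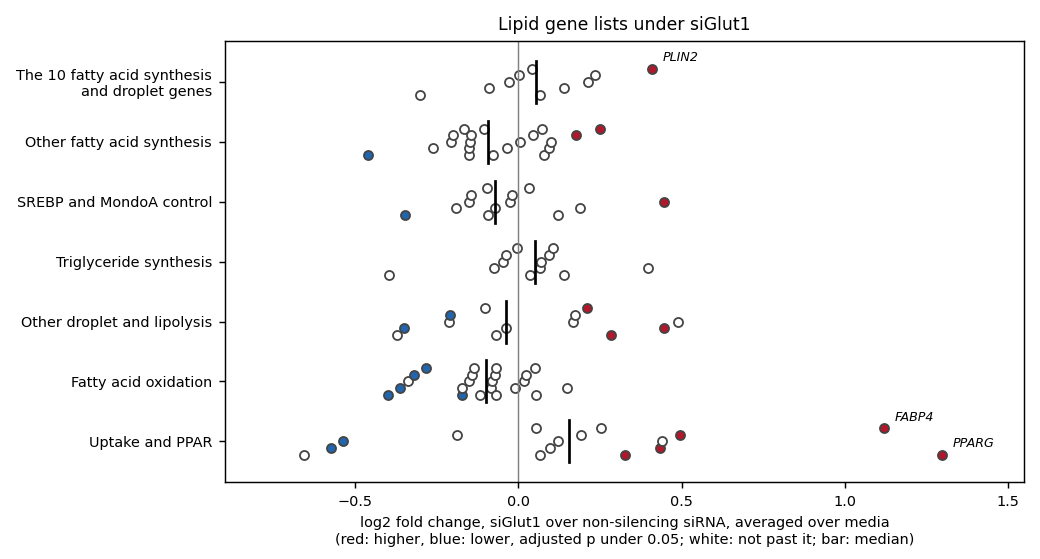
Log2 fold change of siGlut1 over NS, averaged over media (x axis), for the 10 genes and for each of the 6 lists (y axis); each point is a gene, filled red or blue where it was higher or lower at an edgeR adjusted p under 0.05, and black bars are medians. PPARG at 1.30 and FABP4 at 1.12 lie far to the right of PLIN2 at 0.41, and the 5 filled genes of fatty acid oxidation are all lower.

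Among the 6 lists, that of fatty acid uptake and PPAR genes held the largest rises: 5 of 16 rose and 2 fell, with a median of 0.16, where 7.93% of all genes were called higher and 6.49% lower. As this list was also chosen with earlier results of these data known, its count beside that share is no test. Within single media 2 of 16 rose in high glucose, where 2.47% of all genes were called higher, and 3 of 16 in control glucose, where 1.7% were. Called or not, values were positive for 10 and negative for 6 in high glucose, and positive for 12 and negative for 4 in control glucose. The lowest values were -0.80 in high and -0.57 in control glucose. FABP4, a fatty acid binding protein of capillary endothelium and adipocytes and a PPAR gamma target, was at 32.7, 27.9 and 36.6 CPM in siGlut1 high libraries against 13.4 and 15.9 CPM in NS high libraries, and at 21.5, 22.5 and 18.9 CPM in siGlut1 control libraries against 7.87, 11.7 and 10.02 CPM in NS control libraries. The FABP4 groups did not overlap in either medium. It rose 2.21-fold in high glucose (1.145 ± 0.17 SE, edgeR adjusted p = 0.0071), 2.13-fold in control glucose (1.09 ± 0.15, 0.0064) and 2.17-fold averaged over media (1.12 ± 0.11), a call held when each library was left out. The FABP4 call in high glucose ended without NS high 1 (1.04, adjusted p = 0.096) or NS high 3 (1.27, adjusted p = 0.073). FABP4 was also the 1 gene of the 6 lists called for high glucose averaged over siRNAs (0.60, adjusted p = 0.0470), a call that ended when any 1 of 9 libraries was left out, all but NS control 2 and NS control 3 (0.53 to 0.68 over the 11, adjusted p up to 0.188).

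FABP5, the epidermal-type fatty acid binding protein, has many processed copies in the genome that could share its reads. It was at 273, 237 and 264 CPM in siGlut1 high libraries against 203 and 178 CPM in NS high libraries, and at 227, 214 and 201 CPM in siGlut1 control libraries against 153, 159 and 165 CPM in NS control libraries. It rose 1.36-fold in high glucose (0.44, edgeR adjusted p = 0.0232) and 1.35-fold in control glucose (0.43, 0.0183), and the groups did not overlap. The FABP5 call ended in high glucose without NS high 1, NS high 3, siGlut1 high 1 or siGlut1 high 3 (0.35 to 0.55, adjusted p up to 0.216), and in control glucose without NS control 1, siGlut1 control 1 or siGlut1 control 2 (0.39 to 0.47, adjusted p up to 0.080). PPARG, the nuclear receptor PPAR gamma, was a scarce transcript at 1.38, 1.79 and 1.33 CPM in siGlut1 high libraries against 1.04 and 0.59 CPM in NS high libraries, and 1.67, 1.76 and 1.74 CPM in siGlut1 control libraries against 0.36, 0.76 and 0.47 CPM in NS control libraries. PPARG rose 3.30-fold in control glucose (1.72 ± 0.30, edgeR adjusted p = 0.0138). Without NS control 1 this value was 1.52 (adjusted p = 0.0589). Averaged over media PPARG rose 2.46-fold (1.30 ± 0.22, edgeR adjusted p = 0.0035). Its counts were only 18 to 138 per library, and all of them were even numbers, as for every gene. In high glucose PPARG was at 0.87 (95% interval 0.16 to 1.59, edgeR adjusted p = 0.157), and its interaction was -0.85 (-1.80 to 0.11, adjusted p = 0.999). SLC27A1, a fatty acid transporter, fell by 0.57 on the log2 scale (adjusted p = 0.0448), and PPARA, the receptor PPAR alpha, fell by 0.54 (0.0343). The SLC27A1 call ended without any 1 of 8 libraries, all but NS control 3, siGlut1 control 2 and siGlut1 high 1, and the PPARA call without any 1 of 8, all but NS control 3, siGlut1 control 1 and siGlut1 high 1 (adjusted p up to 0.133 and 0.120).

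**Figure D5:**
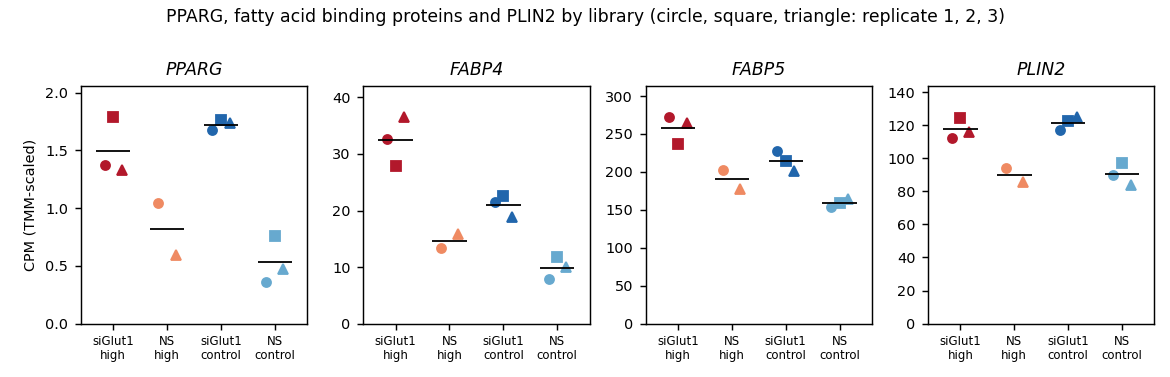
Levels of PPARG, FABP4, FABP5 and PLIN2 in CPM (y axis, from 0, TMM-scaled) in every library of the 4 groups (x axis); points are libraries, marked by replicate number, and black bars are group means. For all 4 genes each siGlut1 group lies above the NS group of its medium with no overlap, and PPARG stays under 2 CPM throughout. PPARG, FABP4 and FABP5 were named because they were called with the siRNA, and PLIN2 was called as well. The lack of overlap thus follows in part from that choice and is no separate result. Over all genes tested, 44.5% do not overlap in high and 20.6% in control glucose, in either direction. These shares are for single media and unselected genes, so they are no measure for the 4 genes.

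Other cell types were followed by their markers, since in bulk RNA fewer cells of a type and less RNA per cell cannot be told apart. Of 6 adipocyte markers, ADIPOQ, LEP, PLIN1 and CIDEC were under 1 CPM in every library, and the summed level was 5.21 to 5.75 CPM in siGlut1 high, 5.38 to 6.91 CPM in NS high, 6.44 to 7.04 CPM in siGlut1 control and 6.07 to 7.54 CPM in NS control libraries. PPARG is one of these 6. Of 7 pericyte and smooth muscle markers, PDGFRB, CSPG4, DES, MYH11 and KCNJ8 were under 1 CPM in every library. Their summed level, mostly RGS5, was 1701 to 2040 CPM in siGlut1 high against 2376 to 2441 CPM in NS high, and 1513 to 1619 CPM in siGlut1 control against 1843 to 2168 CPM in NS control libraries. RGS5 fell by 0.35 on the log2 scale averaged over media (edgeR adjusted p = 0.0039), and its part in the results for PLIN2 and FABP4 was not tested. Among the endothelial markers 2 of 8 rose in the same comparison, KDR by 0.31 and TEK by 0.29 (adjusted p = 0.0163 and 0.0144), where 7.93% of all genes were called higher. Of 5 epithelial markers, CDH1 and EPCAM were under 1 CPM in every library. Their summed level, carried by the keratins, was 276 to 320 CPM in siGlut1 high against 344 to 355 CPM in NS high, with no overlap, and 292 to 385 CPM in siGlut1 control against 311 to 389 CPM in NS control libraries. KRT8 was at -0.40 and KRT18 at -0.19 in high glucose (adjusted p = 0.242 and 0.183), and the part of these markers in the results was not tested. Fibroblast markers summed to at most 4.17 CPM and astrocyte markers to at most 0.138 CPM in any library. Microglial and leukocyte markers summed to 49.0 to 61.1 CPM in siGlut1 high, 46.2 to 49.1 CPM in NS high, 47.9 to 73.7 CPM in siGlut1 control and 39.4 to 58.6 CPM in NS control libraries, with PTPRC, AIF1 and CSF1R under 1 CPM in every library.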

How the data were processed

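RNA sequencing of 12 deposited columns was used, of which 11 entered the tests. Per the file headers, the authors deposited raw gene counts and RPKM values, the latter per kilobase of the listed gene length. Per the submitters' processing notes, the genome build was hg19 and DESeq2 was named; neither aligner, annotation nor strand use is stated there. The labels name both a TruSeq stranded and a SMARTER kit for every library without saying which was used for which, so a kit difference between groups was not tested, and reads of overlapping antisense genes cannot be told apart. Every count in the 11 columns is even. Neither the reason for this nor its bearing on the tests was examined, so the counts may overstate the number of independent reads.

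Counts were tested with edgeR 4.0.16 in R 4.3.3 (TMM, filterByExpr, quasi-likelihood F test, two-sided), with 4 groups in 1 fit without a replicate term and Benjamini-Hochberg adjustment over 14324 genes at a threshold of 0.05. Chromosome Y entries and XIST (124 entries) were left out. SE is the log2 fold change over the root of F, and intervals are 95%. The common dispersion was 0.0161 with 7 residual degrees of freedom. The alternatives were DESeq2 1.42.0, other scaling, other filters, a replicate block, other sets of columns, removal of the trend on gene length, and each library left out. The 10 genes were named throughout, and from each list and comparison up to 4 called genes with the largest absolute change, or the 2 most counted where a list had none. The genes and lists were chosen with earlier results of these data known. Promoters are from RefSeq, GRCh38.p14.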

Additional observations from a re-analysis of the deposited data

How the results depend on the processing

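The number of the 10 genes past the threshold moved as follows. With only the 2 groups compared in the fit, siGlut1 against NS in control glucose gave 0 (PLIN2 0.43, adjusted p = 0.0684). With all 12 columns, high glucose gave 2, adding ACACA (0.39, adjusted p = 0.0394). The added column was the mean of the other 2 of its group in 23397 of 23398 entries. That fit thus counts a mean of 2 libraries as a further replicate, and its adjusted p-values cannot be taken at face value. With both control glucose libraries numbered 3 left out, control glucose gave 0 (PLIN2 0.35, adjusted p = 0.0541), the averaged siRNA comparison 2 and the averaged glucose comparison 1, adding PNPLA2 (-0.35 and -0.42, adjusted p = 0.0213 and 0.0115). Leaving out each library gave 0 to 1 in high glucose, 0 to 1 in control glucose, 1 to 2 in the averaged siRNA comparison and 0 to 1 in the averaged glucose comparison. The averaged PLIN2 call held in all 19 alternatives that could be fitted, the fit with all 12 columns among them. Of 70 results of the 10 genes, 36 changed sign in some alternative, 0 of these past the threshold.

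Across the alternatives other than leaving out a library, counts of called genes over all genes were 508 to 1807 for siGlut1 against NS in high glucose (589 as reported), 70 to 1049 in control glucose (424), 1904 to 3184 averaged (2065), 0 to 734 for glucose with siGlut1 (2), 0 to 48 with NS (0), 49 to 2580 averaged (59) and 0 for the interaction. Leaving out each library gave 6 to 1079, 135 to 342, 1001 to 2500, 0 to 17, 0 to 2, 0 to 850 and 0 in the same order.

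Deviations from group means correlated at -0.250 to 0.535 over 15 same-numbered pairs (median 0.120, 9 over 0.1) and at -0.435 to 0.262 over 30 pairs of unlike number (median -0.081, 7 over 0.1), and 8 of 11 libraries were closest to a library of their own number, a hint from the data and not from the design. With the replicate block the PLIN2 values were 0.39 averaged, 0.35 in high and 0.43 in control glucose (adjusted p = 0.0015, 0.0410 and 0.0110). Among the list genes, the fit with only the 2 groups ended the control glucose calls of PPARG, FABP5 and ETFDH (adjusted p = 0.0612, 0.0645 and 0.178), and the block ended the high glucose call of ETFDH (0.0501) and the glucose call of FABP4 (0.0526). Leaving out both control glucose libraries numbered 3 ended the control glucose calls of PPARG and ETFDH (0.0600 and 0.0575) and the averaged calls of MGLL and HSD17B11 (0.0668 and 0.0549). Removing the gene length trend ended the averaged call of MGLL (0.0607), and no filter on low counts ended that of ETFDH in control glucose (0.0529). The cause of these shifts was not tested.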
